A study of Mus musculus with 24 samples.

Results

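Subcutaneous adipose tissue (SAT) of wild-type mice that had eaten a high-fat diet for 20 weeks was set against SAT of wild-type mice that had eaten the same diet for 8 weeks. The 9 libraries, 4 at 20 weeks and 5 at 8 weeks, were chosen by their labels alone from the 24 of the series. All 9 were labelled male, C57BL/6J and wild-type, and in both groups 60% of the dietary energy was fat. The 20-week libraries belong to an experiment on diet, whose other arm ate a low-fat diet (10% of energy as fat) for 20 weeks. The 8-week libraries belong to an experiment on Azin2, a gene that acts on polyamine metabolism, and come from wild-type littermates of Azin2-/- mice. The sources used here give no ages, body weights or hours of sampling. Feeding time therefore coincides with experiment, and with any batch of mice, dissection or library preparation, so that none of these can be told apart from it. Each difference below is one between these sets of libraries. No label says that the libraries of a group came from separate animals, and p-values measure only the spread between these samples.

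High-fat feeding enlarges fat cells, and in long-standing obesity macrophages gather around dying adipocytes, take up their lipid in lysosomes and turn on genes such as Trem2, Gpnmb and Cd9. Adipocytes of obese animals are known for lower expression of genes for insulin-regulated glucose uptake, lipolysis, mitochondrial respiration and the breakdown of branched-chain amino acids, and the matrix around them thickens. Clock genes follow the hour of the day, and their transcript levels depend on when tissue is taken. In whole tissue, fewer cells of a type and less RNA per cell cannot be told apart, which holds for every gene below.

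Total counts ran from 35.58 to 40.17 megareads per library at 20 weeks and from 33.32 to 46.62 megareads at 8 weeks, and the means differed by -2.07 megareads (two-sided exact permutation p = 0.532). No class of RNA differed in its share of counts after adjustment over 5 classes, the smallest adjusted p of the exact permutation test being 0.278 for long non-coding RNA. The tissue label was checked against position genes. Hoxc10, a homeobox gene of subcutaneous fat, lay between 18 and 40.5 counts-per-million (CPM) in all 9 libraries and between 0.112 and 1.46 CPM in the 8 libraries of gonadal fat in the series, and the adipocyte genes Adipoq and Plin1 were high throughout, Adipoq at 1780 to 2710 CPM and Plin1 at 1810 to 3430 CPM. Transcripts of skeletal muscle, which lies under the pad, summed to 56850 CPM in 8-week replicate 3 and to 6421 CPM in 20-week replicate 6, against 90.8 to 286.7 CPM in the other 7 libraries. Calls that ended and list counts that moved by over 1.5 times without both libraries are given beside the results. The low-fat libraries 3, 5 and 6 of the diet experiment are placed beside the 9 as values, with no test. Low-fat replicate 1 was left out of these values because genes of the epididymis summed to 26800 CPM in it, against at most 0.701 CPM in the other low-fat libraries. Its Hoxc10 level was 0.0469 CPM. It remains where all 24 libraries are shown or fitted.

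Of 16953 genes tested, 6614 differed between 20 and 8 weeks at an adjusted p under 0.05 (39%), of which 3315 were higher at 20 weeks (19.6% of genes tested) and 3299 were lower (19.5%). Fold changes are written as 20 weeks over 8 weeks on the log2 scale throughout. In parentheses, a number before an adjusted p that has no name of its own is such a log2 fold change, and each adjusted p is from edgeR's quasi-likelihood test with Benjamini-Hochberg adjustment over all genes tested. Levels are normalised CPM, listed in the order of 20-week replicates 3 to 6, 8-week replicates 1 to 5 and low-fat replicates 3, 5 and 6. They are not scaled by gene length and compare libraries, not genes. Positions are on GRCm38. The median over all genes tested was -0.04. A change of at least 2-fold was called for 973 genes that were higher and 460 that were lower. In 5992 genes (35.3%) the 4 libraries of 20 weeks and the 5 of 8 weeks did not overlap. These shares are the background for each gene list below: a list with a share near these in a direction is close to all genes. With all 24 libraries in 1 fit, 2152 genes were higher and 2077 lower.

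Genes discussed as members of a list below, beyond those picked by the rule on size and p given with the processing, are named after their values were seen. Some of the differences with the smallest adjusted p also separated the experiments as a whole. Lrmda, a gene of melanocyte differentiation (ENSMUSG00000063458, chromosome 14: 22019712 to 23056085), stood at 10.7, 9.91, 11.3 and 11 CPM in 20-week replicates 3 to 6 and at 1.16, 0.785, 1.48, 1.04 and 1.02 CPM in 8-week replicates 1 to 5 (log2 fold change 3.29, SE 0.17, adjusted p = 7.16e-06). Its level was 9.73, 9.37 and 11 CPM in the low-fat libraries of the diet experiment, and at most 1.61 CPM in any library of the Azin2 experiment, gonadal fat and Azin2-/- mice included. Wdfy1, an endosomal adaptor, stood at 21.9, 21.6, 23.1 and 20.9 CPM against 50.5, 47.9, 48, 48 and 54.5 CPM (log2 fold change -1.19, SE 0.06, adjusted p = 7.16e-06), with 21.4, 19.9 and 20.1 CPM in the low-fat libraries and 39.8 to 54.7 CPM over all libraries of the Azin2 experiment. For both genes the 8 libraries of the diet experiment and the 16 of the Azin2 experiment did not overlap.

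Nnt, the mitochondrial transhydrogenase that carries a deletion in the C57BL/6J substrain (ENSMUSG00000025453, chromosome 13: 119335448 to 119408997), was at 13.4, 14.2, 14.6 and 13.5 CPM at 20 weeks and at 35.8, 37.2, 50.3, 42 and 31.8 CPM at 8 weeks (log2 fold change -1.50, SE 0.12, adjusted p = 4.67e-05). Low-fat replicates 3, 5 and 6 held 14.1, 19.9 and 19.6 CPM, and low-fat replicate 1, left out above, held 35.9 CPM. The 16 libraries of the Azin2 experiment held 27.1 to 63.2 CPM of the library total. Cyfip2, another gene known to differ between C57BL/6 substrains, was at 9.14, 8.1, 9.73 and 8.08 CPM against 4.22, 3.74, 1.74, 4.67 and 2.25 CPM (1.40, adjusted p = 0.00274). Cyfip2 did not part the experiments: it held 5.75 to 14.3 CPM of the library total in gonadal fat of the Azin2 experiment. In the 4 low-fat libraries, replicate 1 included, it held 3.25 to 11.8 CPM. Wdfy1 is on the same list of genes that differ between C57BL/6 substrains. Of the 6 genes listed 3 were tested and all 3 were called, Nnt and Wdfy1 lower and Cyfip2 higher, beside 39% of all genes tested. The labels name the same strain for both experiments, and the part of genetic background in the other results was not tested.

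**Figure D1:**
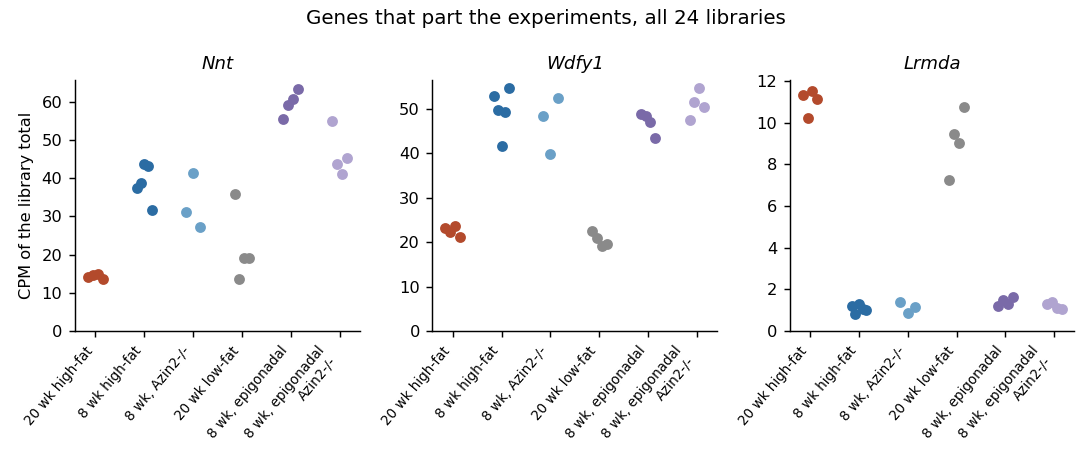
CPM of the library total for Nnt, Wdfy1 and Lrmda, with 1 point per library and the 24 libraries grouped by diet time, depot and genotype. Lrmda is at most 1.61 CPM in every library of the 8-week experiment and at least 7.27 CPM in every library of the 20-week experiment, low-fat mice included. The value of 7.27 CPM is that of low-fat replicate 1, which holds epididymal transcripts.

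Gene length moved with the comparison. Genes were put into 5 equal groups by summed exon length. In the shortest group 9.75% were called higher and 25.7% lower at 20 weeks, and in the longest 37.7% were higher and 8.51% lower. The median log2 fold change went from -0.21 in the shortest to 0.16 in the longest. Per library, the longest group exceeded the shortest by 0.12 to 0.25 (log2) at 20 weeks while the difference was -0.22 to -0.05 at 8 weeks, on a scale of deviations from a common centre. On that scale low-fat replicates 3, 5 and 6 held -0.018, -0.046 and -0.078, and low-fat replicate 1, with its epididymal transcripts, held 0.025. The Azin2-/- SAT libraries held -0.13 to -0.11. With a length trend removed in each library, an alternative chosen after seeing the data, 2984 genes were higher and 2964 lower, and 5086 of these 5948 were among the 6614. The part of length in the lists below was not tested otherwise, and a count that the correction moves is given beside the list.

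**Figure D2:**
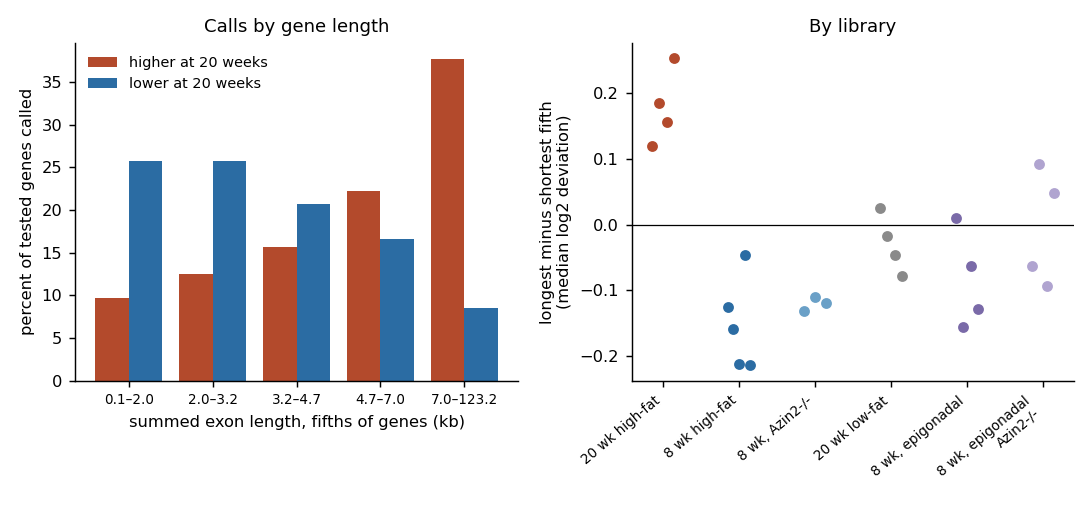
Left, percent of tested genes called higher or lower at 20 weeks in each of 5 equal groups by summed exon length. Right, median log2 deviation of the longest group minus that of the shortest, 1 point per library, which is above 0 in the 4 libraries of 20 weeks and below 0 in the 5 of 8 weeks. All 24 libraries are drawn, low-fat replicate 1 included.

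In the plot of gene lists, cell division, the lysosome and macrophages had the largest shares of higher genes, and breakdown of branched-chain amino acids and the clock the largest shares of lower genes among the larger lists.

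**Figure D3:**
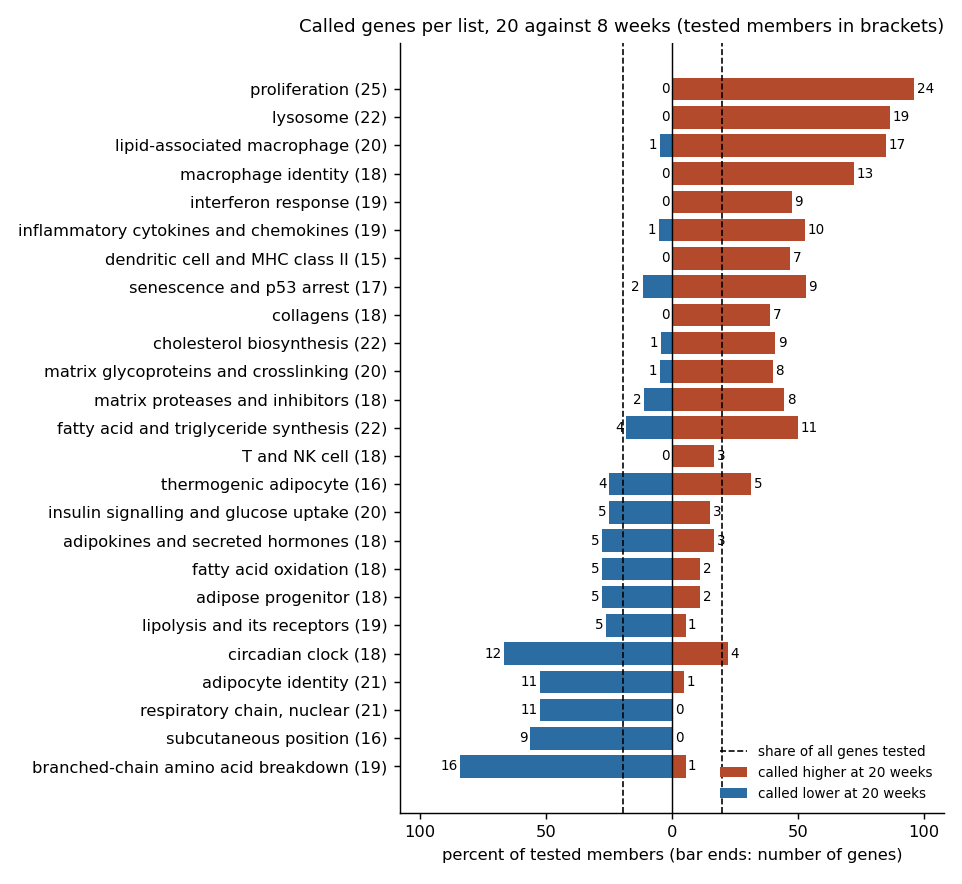
Percent of the tested members of 25 gene lists called higher (right) or lower (left) at 20 weeks, with the number of called genes at each bar and the shares of all genes tested as dashed lines. Proliferation reaches 24 of 25 genes higher, and branched-chain amino acid breakdown 16 of 19 lower.

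Counts of several lists described below moved by over 1.5 times when other libraries of the series entered the fit. The fit of all 24 includes low-fat replicate 1 with its epididymal transcripts. Both that fit and the one with Azin2-/- libraries added include a muscle-rich Azin2-/- SAT library. The part of these libraries in the counts and calls was not tested. Besides genes noted below, the fit of all 24 ended the calls of Enpp1, Sat1, Il4ra, Kdr, Hoxc9, Akt2, Trp53inp2, Acaa2, Ccl24, Ciita and Lipe (adjusted p 0.0583 to 0.584). Adding the Azin2-/- libraries ended those of S100a8, Ccl24, Il4ra and Trp53inp2 (adjusted p 0.0803 to 0.168), and that of Azin2 itself (0.386). With all 24 libraries in 1 fit, genes of the unfolded protein and integrated stress responses were higher in 1 and lower in 2, fatty acid oxidation in 1 and 1, thermogenic genes in 3 and 1, insulin signalling in 1 and 3, progenitor genes in 0 and 3, immediate early genes in 2 and 1, hypoxia genes in 2 and 1, matrix proteases in 5 and 1, and Schwann cell genes in 0 and 1. In that fit 4 other matrix genes, 1 gene of fat expansion, 1 secreted factor, 1 B cell gene and 0 polyamine, T cell, endothelial and type 2 immunity genes were higher, and 2 lipolysis genes, 1 gene of type 2 immunity and 0 senescence genes were lower. With the 3 Azin2-/- SAT libraries added to the 8-week group, cholesterol synthesis was higher in 5, fatty acid and triglyceride synthesis in 3, thermogenic genes in 3, T and NK cell genes in 5, type 2 immunity in 0, and secreted factors, fat expansion, fatty acid oxidation and polyamine genes in 1 each, while respiratory genes were lower in 6, secreted factors in 3, progenitor genes in 2, and type 2 immunity and matrix proteases in 1 each.

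Macrophage transcripts were higher at 20 weeks. Of 18 genes of macrophage identity, 13 were called higher and 0 lower, with a median log2 fold change of 0.89, beside 19.6% and -0.04 over all genes. Their summed level was 1488 to 1838 CPM at 20 weeks, 734 to 1049 CPM at 8 weeks and 544 to 710 CPM in the low-fat libraries. Without 8-week replicate 3, or without both muscle-rich libraries, 2 members were lower. Adgre1, which encodes the F4/80 surface receptor of macrophages (ENSMUSG00000004730, chromosome 17: 57358691 to 57483527), stood at 139.8, 172, 140.4 and 119 CPM at 20 weeks and at 42.4, 52.1, 31.8, 38.2 and 35.1 CPM at 8 weeks, a 3.57-fold difference (log2 fold change 1.84, SE 0.15, adjusted p = 4.73e-05). The lowest library of 20 weeks was above the highest of 8 weeks by more than the whole range of the latter. Low-fat libraries held 22.3, 30.0 and 26.9 CPM. Cd68, a glycoprotein of macrophage lysosomes, was at 124, 158, 146 and 117 CPM against 44.3, 53.9, 23.6, 35.2 and 30.0 CPM (log2 fold change 1.86, SE 0.22, adjusted p = 3.47e-04).

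Members of the list differed in size. The complement genes C1qa, C1qb and C1qc and the colony-stimulating factor receptor Csf1r had log2 fold changes of 0.77 to 1.01, and Mrc1, the mannose receptor, and Fcgr1, the high-affinity Fc receptor, had 1.24 and 1.68. The genes that mark resident tissue macrophages did not all follow. Folr2 was called higher (1.07, adjusted p = 4.40e-05), whereas Lyve1 (-0.41, adjusted p = 0.0989), Timd4 (-0.69, adjusted p = 0.074) and Cd163 (0.20, adjusted p = 0.481) did not pass, and their libraries overlapped.

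Genes of lipid-associated macrophages, the state found around dying adipocytes, were higher by more: 17 of 20 were called higher and 1 lower, with a median log2 fold change of 1.23. Trem2, the lipid receptor that marks these cells, was at 53.1, 75.4, 63.8 and 46.8 CPM at 20 weeks and at 12.5, 16.1, 3.88, 5.12 and 9.8 CPM at 8 weeks (log2 fold change 2.65, SE 0.42, adjusted p = 0.00187), with 1.41, 0.981 and 4.49 CPM in the low-fat libraries. Itgax, which encodes CD11c, stood at 81.1, 99.3, 106 and 78.2 CPM against 21.2, 29.4, 8.07, 14.8 and 10.5 CPM (log2 fold change 2.44, SE 0.37, adjusted p = 0.00146), and at 3.43, 6.18 and 6.89 CPM on the low-fat diet. Within the 8-week group replicates 1 and 2 were the highest for both genes and replicate 3 the lowest, and no 8-week library came near the 20-week range. The macrophage elastase Mmp12 spanned 139 to 202 CPM at 20 weeks, 9.78 to 61.5 CPM at 8 weeks and 1.27 to 5.18 CPM in the low-fat libraries. Gpnmb, a lysosomal glycoprotein (2.40, adjusted p = 6.99e-04), Atp6v0d2, a proton pump subunit of macrophages and osteoclasts (3.05, adjusted p = 0.00138), and Lgals3, galectin 3 (1.58, adjusted p = 4.23e-04), were called as well. Acp5, an acid phosphatase, was the lone member called lower (-0.46, adjusted p = 0.03), and no member was lower when any 20-week library or 8-week replicate 3 or 4 was left out, or both muscle-rich libraries. Spp1, osteopontin, did not pass (1.06, adjusted p = 0.072), nor did Lpl, an abundant adipocyte lipase (0.08, adjusted p = 0.38).

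Other immune genes were less uniform. Of 19 cytokine and chemokine genes tested 10 were called higher and 1 lower (median 0.86), 6 were higher with all 24 libraries in 1 fit, and 0 were lower without 20-week replicate 5 or both muscle-rich libraries. The monocyte chemokine Ccl8 was at 25.3, 23.8, 13.8 and 17.2 CPM against 2.37, 2.62, 4.86, 1.21 and 4.77 CPM (log2 fold change 2.66, SE 0.40, adjusted p = 0.00114). Il1rn, the interleukin 1 receptor antagonist, was at 16.1 to 25.1 CPM against 1.77 to 8.69 CPM (2.32, adjusted p = 0.00542), with at most 0.889 CPM in the low-fat libraries. Tnf was low in every library, at 2.4 to 2.97 CPM and 0.45 to 1.28 CPM (1.32, adjusted p = 0.00397). Ccl2, the chief monocyte attractant, did not pass (log2 fold change 1.09, SE 0.50, adjusted p = 0.116): it was at 23.7, 18.6, 17.3 and 15.6 CPM against 12.2, 18.9, 4.19, 4.81 and 4.05 CPM, and 8-week replicate 2 lay inside the 20-week range. Without that replicate Ccl2 was called (log2 fold change 1.57, adjusted p = 0.0115). Saa3, an acute-phase protein of inflamed fat, was at 16, 6.34, 6.16 and 7.81 CPM against 10.3, 7.66, 11.5, 8.64 and 10.3 CPM, so that the 8-week libraries lay within the 20-week range. Its high value in 20-week replicate 3 set the result, since without that library Saa3 was called lower (log2 fold change -0.52, adjusted p = 0.0368).

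Interferon genes were higher in 9 of 19, with 0 lower and a median of 0.26. These were mainly the antiviral Oas and Mx genes, such as Oas3 (1.42, adjusted p = 0.00136) and Oasl1 (1.00, adjusted p = 0.00106), whose family members share sequence, so their separate counts are less certain. Isg15 and Irf7 did not pass. Among 15 genes of dendritic cells and MHC class II, 7 were higher and 0 lower, among them H2-DMb1, which loads peptides onto class II molecules, at 65.4, 66.7, 58.8 and 58.4 CPM against 30.0, 32.7, 20.1, 26.1 and 19.1 CPM (log2 fold change 1.28, SE 0.15, adjusted p = 2.73e-04), and Ciita, the class II activator (0.76, adjusted p = 0.00283). The count was 12 by limma-voom and 2 with all 24 libraries in 1 fit.

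T and NK cell genes showed 3 of 18 higher, a share near the background, although the median log2 fold change was 0.74. Only 1 of the 18, the receptor gene Il2ra, had libraries without overlap, beside 35.3% of all genes tested. Il2ra (0.35, adjusted p = 0.0372) and Tbx21 (0.67, adjusted p = 0.0414) were called. The T cell receptor component Cd3e overlapped, at 3.01, 1.38, 2.21 and 1.87 CPM against 0.521, 1.16, 0.231, 2.11 and 0.809 CPM (log2 fold change 1.13, SE 0.52, adjusted p = 0.108), and 8-week replicate 4 held the levels of the 20-week group. Without that replicate 8 of the 18 were higher, without 20-week replicate 3, 5 or 6 or 8-week replicate 1 or 3 or both muscle-rich libraries the number was 0, and without 20-week replicate 4 or 8-week replicate 5 it was 1. Of 16 B and plasma cell genes 2 were higher, 8 without 8-week replicate 4, and 1 without 20-week replicate 3, 5 or 6 or 8-week replicate 3 or 5 or both muscle-rich libraries. Monocyte and neutrophil genes were higher in 3 of 8, namely Csf3r (1.24, adjusted p = 2.33e-04), S100a8 (1.40, adjusted p = 0.00114) and Ly6c2 (0.93, adjusted p = 0.0383). Of 8 genes of eosinophils and type 2 immunity 2 were higher, Siglecf (1.45, adjusted p = 0.0182) and Il4ra (0.21, adjusted p = 0.00934), and 2 lower, with a median of -0.09, and 1 was lower without 20-week replicate 5 or 6 or both muscle-rich libraries. Without 20-week replicate 4 the numbers were 1 and 1. Retnla, a product of alternatively activated macrophages, fell from 288 ± 131 CPM (SD, n = 5) to 133 ± 26.9 CPM (SD, n = 4; -1.12, adjusted p = 0.0217), and the chemokine Ccl24 was lower too (-0.69, adjusted p = 0.00816).

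**Figure D4:**
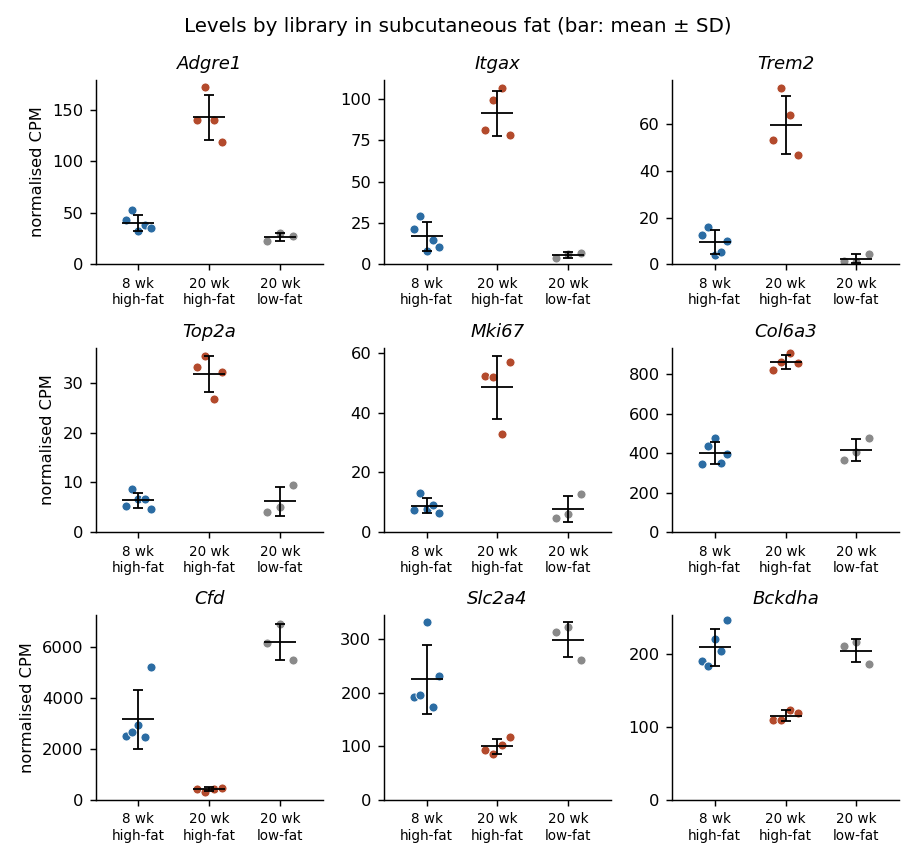
Normalised CPM of 9 genes in SAT after 8 or 20 weeks of high-fat diet and after 20 weeks of low-fat diet (replicates 3, 5 and 6), 1 point per library, with mean and SD. Adgre1, Itgax, Trem2, Top2a, Mki67 and Col6a3 are higher and Cfd, Slc2a4 and Bckdha lower in each 20-week high-fat library than in any 8-week library.

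Genes of cell division were higher at 20 weeks almost as a whole: 24 of 25 were called higher and 0 lower, with a median log2 fold change of 1.55. Their summed level was 342.3 to 404.2 CPM at 20 weeks, 130 to 200.1 CPM at 8 weeks and 113.3 to 163.6 CPM in the low-fat libraries. Top2a, the topoisomerase that untangles chromosomes before mitosis (ENSMUSG00000020914, chromosome 11: 98992943 to 99024189), stood at 33.3, 35.4, 26.8 and 32.2 CPM against 5.19, 8.63, 6.74, 6.7 and 4.56 CPM, a 5.01-fold difference (log2 fold change 2.33, SE 0.17, adjusted p = 3.31e-05). Mki67, the standard marker of cycling cells, stood at 52.2, 51.8, 32.9 and 56.8 CPM against 7.51, 12.9, 7.69, 9.09 and 6.5 CPM (log2 fold change 2.47, SE 0.22, adjusted p = 9.03e-05), and at 4.75, 5.88 and 12.7 CPM on the low-fat diet. For both genes the groups were far apart. The mitotic kinase Cdk1 and the cyclins Ccna2, Ccnb1 and Ccnb2 had log2 fold changes of 1.63 to 1.88, and the S-phase genes Pcna (0.40, adjusted p = 0.00371), Tyms (0.55, adjusted p = 0.00599) and Mcm3 (0.64, adjusted p = 0.00356) smaller ones. Ube2c alone was not called (-0.37, adjusted p = 0.774): it was at 3.32, 5.04, 46.5, 3.35 and 3.48 CPM at 8 weeks, where the muscle-rich replicate 3 was the high library. The count stayed at 24 or 25 under every alternative run, the removal of the length trend included. Which cells were dividing cannot be read from whole tissue.

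The promoters of this list carry the elements by which cell cycle genes are known to be timed, and 3 are printed because they hold both elements more than once. They are 300 bases each from RefSeq (GRCm38.p6), from 250 before to 50 after the start of the gene, on the strand of the gene. Capitals mark the CCAAT box (CCAAT, or ATTGG on the other strand) and the cell cycle genes homology region (CHR, TTTGAA, or TTCAAA on the other strand).
Top2a (chr11:99024140-99024439, minus strand): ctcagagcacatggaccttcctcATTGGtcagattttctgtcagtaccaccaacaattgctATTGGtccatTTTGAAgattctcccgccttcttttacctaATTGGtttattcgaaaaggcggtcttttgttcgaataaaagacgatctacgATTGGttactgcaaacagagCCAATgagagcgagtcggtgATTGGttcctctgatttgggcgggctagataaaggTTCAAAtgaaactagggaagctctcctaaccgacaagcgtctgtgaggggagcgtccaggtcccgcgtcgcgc
Cdk1 (chr10:69352863-69353162, minus strand): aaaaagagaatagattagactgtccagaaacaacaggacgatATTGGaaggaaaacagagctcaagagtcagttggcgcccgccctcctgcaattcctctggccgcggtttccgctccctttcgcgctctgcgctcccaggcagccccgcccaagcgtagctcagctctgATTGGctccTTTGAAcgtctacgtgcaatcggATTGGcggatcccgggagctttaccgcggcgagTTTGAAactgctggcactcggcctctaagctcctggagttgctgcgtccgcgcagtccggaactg
Ccnb2 (chr9:70421505-70421804, minus strand): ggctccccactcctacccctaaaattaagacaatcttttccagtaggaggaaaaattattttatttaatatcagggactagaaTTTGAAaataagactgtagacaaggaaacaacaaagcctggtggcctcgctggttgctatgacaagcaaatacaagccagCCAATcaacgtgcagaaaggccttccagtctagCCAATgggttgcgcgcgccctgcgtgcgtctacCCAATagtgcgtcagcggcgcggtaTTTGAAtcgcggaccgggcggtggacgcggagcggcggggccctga
Top2a held 6 CCAAT boxes and 2 CHR matches, and Cdk1 and Ccnb2 held 3 and 2 each. Of the 24 called genes 19 had a promoter in the table. A CCAAT box was found in 17 of these 19, beside 37.9% of all 27025 promoters, and a CHR match in 9, beside 18.1%. The letters describe the promoters and do not show which factor acted.

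Of 17 genes of senescence and p53 arrest 9 were higher and 2 lower, the latter Cdkn1b (-0.24, adjusted p = 0.0335) and Phlda3 (-0.29, adjusted p = 0.0442), of which neither was lower when any 20-week library, 8-week replicate 1 or both muscle-rich libraries were left out. Cdkn1a, the cell cycle inhibitor p21, was at 122, 132, 162 and 128 CPM against 85.5, 88.5, 64.1, 92.9 and 54.6 CPM (log2 fold change 0.82, SE 0.16, adjusted p = 0.00333), while low-fat libraries held 148, 70.1 and 93.4 CPM. Cdkn2a, which encodes p16 and p19, was low in all libraries, at 0.576 to 0.84 CPM against 0.0289 to 0.3 CPM (1.96, adjusted p = 0.00517). Lmnb1, a nuclear lamina gene known to be lost in senescent cells, was higher (1.06, adjusted p = 2.05e-04), as was Gdf15, a stress hormone (1.32, adjusted p = 0.00365).

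Lysosomal genes were higher in 19 of 22, with 0 lower and a median of 0.47.  The lipid-handling Psap, prosaposin, was at 3020, 3417, 3324 and 2880 CPM against 2073, 2171, 1995, 2188 and 2026 CPM (log2 fold change 0.60, SE 0.07, adjusted p = 2.47e-04), and Hexa, a subunit of hexosaminidase, at 201, 217, 197 and 184 CPM against 128, 129, 131, 122 and 128 CPM (log2 fold change 0.65, SE 0.06, adjusted p = 7.22e-05). Both groups were tight and did not overlap. Lipa, the lysosomal acid lipase that releases fatty acids from engulfed lipid, was at 217 to 292 CPM against 73.2 to 120.5 CPM (1.34, adjusted p = 1.51e-04), and Ctss, a cathepsin of antigen-presenting cells, at 196 to 279.6 CPM against 39.5 to 120.2 CPM (1.72, adjusted p = 0.00253). Tfeb, the transcription factor of lysosomal genes, and Mitf did not pass, and Tfe3 passed narrowly (0.21, adjusted p = 0.0473). Of the 19 called genes 14 had a promoter in the table, and the CLEAR sequence (TCACGTGA) to which these factors bind was present in 3, those of Ctsd, Gla and Atp6v1a, beside 1.01% of all promoters. With all 24 libraries in 1 fit 10 of the 22 were higher.

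Matrix genes were higher in part. Of 18 collagen genes 7 were higher and 0 lower (median 0.32). Col6a3, a chain of the microfibrillar collagen VI (ENSMUSG00000048126, chromosome 1: 90765923 to 90843971), stood at 821, 861, 907 and 857 CPM against 344, 436, 474, 349 and 396 CPM (log2 fold change 1.11, SE 0.10, adjusted p = 7.57e-05), without overlap. Low-fat libraries held 364, 407 and 475 CPM. Its partner chains Col6a1 (-0.26, adjusted p = 0.11) and Col6a2 (0.09, adjusted p = 0.572) did not pass. Col12a1, which bridges fibrils, was at 50.9, 56.5, 47.4 and 55.9 CPM against 11.4, 15.7, 18.8, 12.8 and 11.5 CPM (log2 fold change 1.91, SE 0.15, adjusted p = 3.98e-05). Of the main fibrillar collagens, Col3a1 was higher (0.50, adjusted p = 0.00481) and Col1a1 was not called (0.18, adjusted p = 0.248). Collagen genes are long, with a median exon length of 7648 bases, which falls in the longest of the 5 length groups. With the length trend removed the median of the list was 0.17, and Col3a1 was no longer called (adjusted p = 0.0675). The count was 3 with all 24 libraries or with Azin2-/- libraries added to the 8-week group, and Col3a1 was called in neither (adjusted p 0.376 and 0.124).

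Among 20 other matrix genes 8 were higher and 1 lower, elastin (-0.43, adjusted p = 0.042), which was not lower when any 20-week library or 8-week replicate 1 was left out. Lox, which crosslinks collagen, was at 394, 422, 418 and 454 CPM against 215, 198, 172, 220.4 and 189 CPM (log2 fold change 1.08, SE 0.08, adjusted p = 3.61e-05). Lum, a collagen-binding proteoglycan, stood at 188 ± 12.6 CPM (SD, n = 4) against 74.2 ± 9.68 CPM (SD, n = 5; 1.34, adjusted p = 2.66e-05), and Postn, periostin, at 578 ± 63.9 against 292 ± 65.3 CPM (0.99, adjusted p = 0.00114). Fn1, fibronectin, and Sparc did not pass. Proteases and their inhibitors were divided, with 8 of 18 higher and 2 lower. Adamts4, an aggrecanase, was at 16.3 to 19.7 against 4.46 to 7.17 CPM (1.74, adjusted p = 6.75e-05). Adamts12, of the same protease family, was at 34.2 to 77 against 12.3 to 19.6 CPM (2.01, adjusted p = 2.76e-04). Timp4, the adipocyte inhibitor of metalloproteinases, fell from 333, 283, 253, 323 and 299.9 CPM at 8 weeks to 91.3, 76.9, 114 and 105 CPM at 20 weeks (log2 fold change -1.62, SE 0.13, adjusted p = 3.75e-05), and Timp3 was lower by less (-0.42, adjusted p = 0.0259), with 1 of the list lower without 20-week replicate 3 or 6, 8-week replicate 5 or both muscle-rich libraries.

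Adipocyte genes were lower at 20 weeks in 11 of 21 and higher in 1, with a median of -0.60, beside 19.5% lower over all genes. Their summed level was 50680 to 52030 CPM at 20 weeks, 53480 to 75620 CPM at 8 weeks and 64760 to 71820 CPM in the low-fat libraries. Cfd, the serine protease adipsin (ENSMUSG00000061780, chromosome 10: 79890853 to 79892655), was at 438, 309, 415 and 475 CPM at 20 weeks and at 2507, 2657, 2946, 2444 and 5225 CPM at 8 weeks, a 7.71-fold difference (log2 fold change -2.95, SE 0.26, adjusted p = 8.35e-05). The low-fat libraries held 6162, 6911 and 5482 CPM. The 3 groups were each apart from the others, and 8-week replicate 5 stood above the rest of its group. Retn, resistin, was at 368, 314, 354 and 395 CPM against 798, 921, 721, 709 and 898 CPM (log2 fold change -1.18, SE 0.11, adjusted p = 6.84e-05), and Nnat, neuronatin, at 488 to 741 against 1719 to 3305 CPM (-1.86, adjusted p = 1.70e-04). The adipogenic factor Cebpa was lower (-0.67, adjusted p = 0.00103) and its partner Pparg was not called (-0.19, adjusted p = 0.457). Adipoq, adiponectin, was at 1768, 1724, 1993 and 1928 CPM against 2014, 1900, 2395, 2201 and 2711 CPM and did not pass (log2 fold change -0.28, SE 0.11, adjusted p = 0.0687), although it did by DESeq2 (adjusted p = 0.041) and without 8-week replicate 2 (0.0295). Lep, leptin, was at 3637, 3989, 4536 and 4368 CPM against 3956, 3996, 2466, 4126 and 1858 CPM (log2 fold change 0.33, SE 0.23, adjusted p = 0.272): replicates 1, 2 and 4 of 8 weeks lay within the 20-week range and replicates 3 and 5 below it. With all 24 libraries in 1 fit 7 of the 21 adipocyte genes were lower.

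Pnpla2, the triglyceride lipase that starts lipolysis, was at 1220, 1391, 1487 and 1427 CPM against 2285, 2082, 2858, 3035 and 3700 CPM (log2 fold change -1.01, SE 0.16, adjusted p = 0.00101). Lipe, hormone-sensitive lipase, was at 1385, 1352, 1580 and 1550 CPM against 2289, 2406, 2204, 2560 and 2826 CPM (log2 fold change -0.74, SE 0.09, adjusted p = 2.76e-04). Both were lower in each 20-week library than in any of 8 weeks, as was the droplet coat gene Plin1 (-0.60, adjusted p = 0.00126). Adrb3, the adrenergic receptor that drives lipolysis, was at 124, 128, 96.3 and 109 CPM against 196, 198, 566, 283 and 674 CPM (log2 fold change -1.74, SE 0.42, adjusted p = 0.0126), and its 8-week libraries were spread widely, while the low-fat libraries held 918 to 933 CPM. Ptger3, a receptor for prostaglandin E that restrains lipolysis, was higher, at 173, 156, 138 and 175 CPM against 83.5, 72, 66.6, 80.1 and 58.8 CPM (log2 fold change 1.15, SE 0.11, adjusted p = 8.76e-05). In all 5 of 19 genes of this list were lower and 1 higher, which is close to the background for lower calls, and 8 were lower without 8-week replicate 2 and 3 without the muscle-rich libraries.

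Genes of secreted factors were higher in 3 and lower in 5 of 18, with 1 higher without 20-week replicate 6 and 5 without 8-week replicate 2. Besides Cfd and Retn, Agt, angiotensinogen, was lower (-1.72, adjusted p = 0.0133), and the secreted factor Metrnl was higher (0.71, adjusted p = 4.47e-04). In the list of fat expansion 2 of 10 genes were higher and 0 lower, a share near the background, with a median of 0.11. Mest, an imprinted gene that follows fat mass in mice, stood at 1682, 1637, 1550 and 1995 CPM against 766, 782, 452, 601 and 348 CPM (log2 fold change 1.54, SE 0.23, adjusted p = 8.22e-04), with 367, 223 and 718 CPM in the low-fat libraries. Trp53inp2 was also called (0.65, adjusted p = 0.00139), while Sfrp5 (-0.42, adjusted p = 0.174, called without 8-week replicate 5 at 0.018), Npr3 (0.30, adjusted p = 0.102) and the caveola genes Cav1 and Cavin1 were not.

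Fatty acid and triglyceride synthesis moved in both directions, with 11 of 22 genes higher and 4 lower. The carbohydrate-responsive factor Mlxipl was lower (-0.81, adjusted p = 1.31e-04), as was Thrsp, a lipogenic regulator, at 116, 122, 107 and 132 CPM against 202, 241, 322, 197 and 390 CPM (log2 fold change -1.18, SE 0.21, adjusted p = 0.002). Slc25a1, which exports citrate from mitochondria, Acly, which cleaves it, and Me1, malic enzyme, were higher. Me1 was at 855, 964, 776 and 833 CPM against 409, 419.7, 528, 365 and 435 CPM (log2 fold change 0.99, SE 0.11, adjusted p = 1.62e-04), and Acly at 284, 299.9, 291 and 286 against 199, 239, 181, 177 and 175 CPM (log2 fold change 0.58, SE 0.09, adjusted p = 0.00121). Acly lost its call with the 12 wild-type libraries in 1 fit (adjusted p = 0.233), with all 24 (0.317) and with Azin2-/- libraries added (0.0834). Fasn, fatty acid synthase, was at 2312, 2508, 2507 and 2405 CPM against 1394, 2071, 1969, 1026 and 1566 CPM (log2 fold change 0.60, SE 0.18, adjusted p = 0.0237), with 10220, 3144 and 4853 CPM on the low-fat diet. Fasn lost its call when 20-week replicate 4, 5 or 6 or 8-week replicate 1 or 5 was left out (adjusted p 0.0501 to 0.06), with the 12 wild-type libraries in 1 fit (0.134), with all 24 (0.118), with the Azin2-/- libraries added (log2 fold change 0.26, adjusted p = 0.434) and with the length trend removed (0.171). The number of genes higher in this list was 7 without 20-week replicate 4 or 8-week replicate 5, 6 with the low-fat libraries or all 24 libraries in the fit, and 3 with the Azin2-/- libraries added to the 8-week group.

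Cholesterol synthesis showed 9 of 22 genes higher and 1 lower, with a median of 0.44. Lss, which closes the sterol ring, was at 77.3, 87.7, 72.4 and 80.4 CPM against 31.4, 38.3, 34.1, 29 and 29.6 CPM (log2 fold change 1.29, SE 0.09, adjusted p = 2.46e-05), and Insig1, the sterol sensor of the pathway, at 563, 526, 446 and 508 CPM against 223, 261, 193, 161 and 218 CPM (log2 fold change 1.27, SE 0.13, adjusted p = 1.11e-04). Neither overlapped. The transcription factor Srebf2 did not pass (-0.06, adjusted p = 0.693). Fdft1, squalene synthase, was lower (-0.83, adjusted p = 1.09e-04). For most members 8-week replicate 2 was the highest of its group, and without it 16 of the 22 were higher. Low-fat libraries were spread widely, with Insig1 at 565, 229.8 and 299 CPM. The sterol regulatory element TCACCCCAC was found in 1 of 8 called promoters, that of Hmgcs1, beside 0.522% of all.

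Genes for the breakdown of branched-chain amino acids were lower in 16 of 19, with 1 higher and a median of -0.52. The pathway turns leucine, isoleucine and valine into acyl-CoA in mitochondria. Bcat2, the transaminase of its opening step, was at 83.9, 75.6, 81.2 and 91.2 CPM against 153, 161, 203, 134 and 232 CPM (log2 fold change -1.09, SE 0.15, adjusted p = 5.69e-04). Bckdha, a subunit of the dehydrogenase that commits the carbon, was at 109.8, 109.5, 124 and 119.8 CPM against 191, 184, 221, 205 and 246 CPM (log2 fold change -0.86, SE 0.09, adjusted p = 1.53e-04), and at 211, 216 and 187 CPM in the low-fat libraries. Hsd17b10, of isoleucine breakdown, stood at 39.8 ± 2.38 (SD, n = 4) against 78.2 ± 7.45 CPM (SD, n = 5; -0.97, adjusted p = 4.40e-05). Each of the 16 was lower in each library of 20 weeks than in any of 8 weeks, beside 3026 of all 16953 genes tested. The dehydrogenase kinase Bckdk, which switches the complex off, was lower too (-0.68, adjusted p = 0.00584). Bcat1, the cytosolic transaminase, moved the other way, at 38.8, 38, 55.5 and 47 CPM against 20.0, 16.2, 14.1, 26.1 and 21.6 CPM (log2 fold change 1.19, SE 0.18, adjusted p = 9.99e-04). The number lower was 13 to 17 when single libraries were left out and 11 with all 24 libraries in 1 fit.

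Nuclear genes of the respiratory chain were lower in 11 of 21 and higher in 0, with a median of -0.43. Ndufv1, of complex I, was at 124, 126, 132 and 134 CPM against 176, 176, 253, 179.5 and 209 CPM (log2 fold change -0.63, SE 0.11, adjusted p = 0.00191). The muscle-rich 8-week replicate 3 was the highest library for Ndufv1 and of the 8-week group for all 21 genes. Without it and 20-week replicate 6, the count fell to 6 and the median to -0.29. Leaving out 20-week replicate 4 gave 4, leaving out 20-week replicate 3, 5 or 6 or 8-week replicate 5 gave 5, all 24 libraries gave 2, and removal of the length trend 6. Of 11 mitochondrially encoded genes 1 was higher, mt-Nd3 (1.44, adjusted p = 0.024), and 4 were without 8-week replicate 3 and 2 without both muscle-rich libraries. The level of mt-Nd3 was low, at 0.55, 0.65, 0.438 and 0.613 CPM against 0.261, 0.103, 0.231, 0.0563 and 0.39 CPM. The value of 0.0563 CPM is below what a count of 0 allows. Its call was lost without 20-week replicate 3, 4 or 6 or both muscle-rich libraries (adjusted p 0.0544 to 0.0677), and with Azin2-/- libraries added (0.0513). Fatty acid oxidation genes were lower in 5 and higher in 2 of 18, with 3 lower when any 20-week library was left out. Cpt1a, which lets fatty acids into mitochondria, was higher, at 187, 202, 213 and 205 CPM against 105, 123, 85.9, 114 and 84 CPM (log2 fold change 0.98, SE 0.11, adjusted p = 2.07e-04), and the thiolase Acaa2 was lower (-0.65, adjusted p = 1.25e-04).

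Of 20 genes of insulin signalling and glucose uptake, 5 were lower and 3 higher (5 without 8-week replicate 5), shares near the background. Slc2a4, the insulin-regulated glucose transporter GLUT4, was at 92.7, 86.2, 103 and 118 CPM against 191, 196, 332, 172 and 231 CPM (log2 fold change -1.17, SE 0.19, adjusted p = 0.00145). Its groups did not overlap, and the high 8-week library was the muscle-rich replicate 3. Low-fat libraries held 313, 321 and 261 CPM. Pck1, which makes glycerol phosphate for re-esterification in fat, was at 640.3, 576, 704 and 736 CPM against 1819, 1535, 2237, 2994 and 4516 CPM (log2 fold change -1.98, SE 0.31, adjusted p = 0.00126). Akt2, the insulin-activated kinase of adipocytes, was lower (-0.51, adjusted p = 0.00118). Enpp1, an inhibitor of the insulin receptor, was higher (1.30, adjusted p = 7.39e-04). The receptor Insr and its substrates Irs1 and Irs2 did not pass.

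Clock genes separated the groups with a pattern of opposite arms. Of 18 genes 12 were lower and 4 higher at 20 weeks, with a median of -0.80. The lower genes were mainly outputs and repressors of the clock's feedback loop. Dbp, an output factor of the clock (ENSMUSG00000059824, chromosome 7: 45705088 to 45710203), was at 14.7, 18.3, 18.1 and 15.7 CPM at 20 weeks and at 109, 97, 88.4, 62.9 and 81 CPM at 8 weeks, a 5.25-fold difference (log2 fold change -2.39, SE 0.16, adjusted p = 2.17e-05). The low-fat libraries, at 8.37, 18.4 and 18.5 CPM, lay beside or below the 20-week high-fat group. Nr1d1, the repressor REV-ERB alpha, was at 91, 91.1, 119 and 97.1 CPM against 288, 309, 302, 235 and 324 CPM (log2 fold change -1.55, SE 0.12, adjusted p = 2.89e-05), with 139.5, 213 and 145 CPM in the low-fat libraries. Per3 was at 32.4, 35, 34.6 and 38 CPM against 76.3, 72.1, 58.7, 70.9 and 79.5 CPM (log2 fold change -1.03, SE 0.09, adjusted p = 6.07e-05), and Per1, Per2 and Cry2 were lower as well.

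The activators were higher. Arntl, which encodes BMAL1, was at 27.3, 23.8, 26.5 and 26.7 CPM against 9.48, 8.86, 14.6, 13 and 10.8 CPM (log2 fold change 1.20, SE 0.14, adjusted p = 2.32e-04), and its partner Npas2 at 8.3, 6.58, 6.4 and 7.44 CPM against 1.45, 2, 2, 3.04 and 2.52 CPM (log2 fold change 1.71, SE 0.20, adjusted p = 2.24e-04). Both were without overlap between the groups. The low-fat libraries held 51.3, 29.3 and 25.5 CPM of Arntl and 13.3, 8.37 and 8.22 CPM of Npas2, all above the 8-week range. Clock was higher too (0.49, adjusted p = 0.00303). Nfil3, which is not one of the activators, was also higher (0.90, adjusted p = 0.021). Across the Azin2 experiment, Dbp was at 42.9 to 168 CPM of the library total and Arntl at 6.99 to 15.5 CPM, gonadal fat and Azin2-/- mice included, whereas the 8 libraries of the diet experiment held 8.15 to 19 CPM of Dbp and 22.8 to 50 CPM of Arntl. For these 2 genes the experiments did not overlap. The part of the hour of sampling was not tested.

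**Figure D5:**
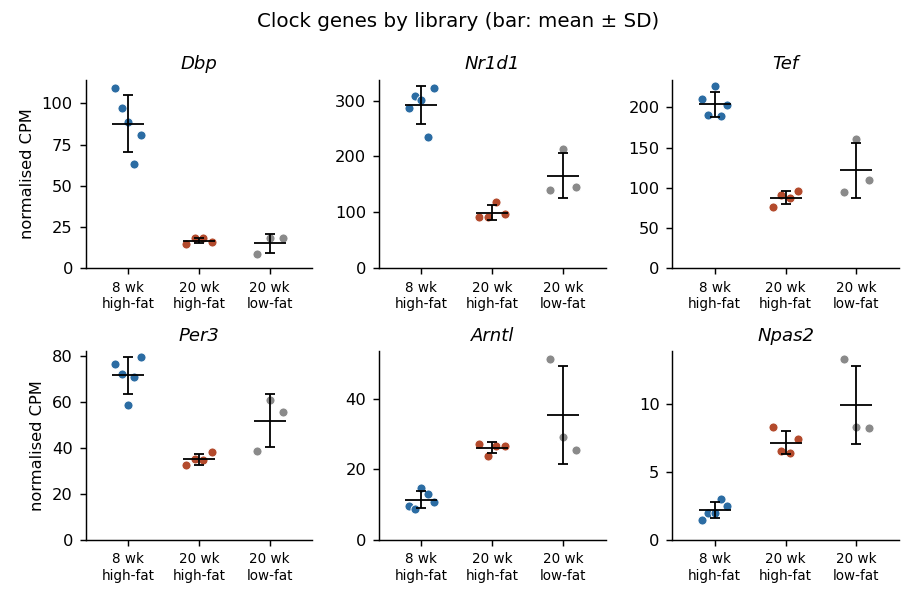
Normalised CPM of 6 clock genes in the 4 libraries of 20 weeks, the 5 of 8 weeks and the 3 low-fat libraries, 1 point per library, with mean and SD. Dbp is 14.7 to 18.3 CPM at 20 weeks and 62.9 to 109 CPM at 8 weeks, and low-fat replicate 3 lies beyond the 20-week range for Dbp (8.37 CPM), Arntl (51.3 CPM) and Npas2 (13.3 CPM), on the side away from the 8-week libraries.

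Promoters of Tef and Per3 are shown for the elements through which the clock is known to drive its targets, with the match in capitals: the E-box CACGTG of the activators in Tef, and the D-box TTATGTAA of Dbp, Tef and Hlf in Per3. Both are 300 bases from RefSeq (GRCm38.p6) on the strand of the gene.
Tef (chr15:81802423-81802722, plus strand): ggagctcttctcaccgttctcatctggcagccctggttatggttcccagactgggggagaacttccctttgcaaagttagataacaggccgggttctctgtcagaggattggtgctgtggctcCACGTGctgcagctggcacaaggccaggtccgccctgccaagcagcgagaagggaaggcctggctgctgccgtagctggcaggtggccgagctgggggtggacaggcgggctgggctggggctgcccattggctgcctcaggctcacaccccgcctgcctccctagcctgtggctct
Per3 (chr4:151044616-151044915, minus strand): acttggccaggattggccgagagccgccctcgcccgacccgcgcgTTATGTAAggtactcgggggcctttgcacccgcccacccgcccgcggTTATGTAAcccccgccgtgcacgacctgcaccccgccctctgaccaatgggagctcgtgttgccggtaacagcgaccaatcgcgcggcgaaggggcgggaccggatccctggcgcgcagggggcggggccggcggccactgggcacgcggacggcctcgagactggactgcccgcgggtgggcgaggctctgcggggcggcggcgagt
Both genes were lower at 20 weeks, Tef at 76.2, 90.6, 87.3 and 96 CPM against 210.4, 190, 227, 189.9 and 204 CPM (log2 fold change -1.22, SE 0.09, adjusted p = 2.46e-05). Of the 16 called clock genes 14 had a promoter in the table. The E-box was present in 4 (Per1, Tef, Ciart and Bhlhe41), beside 7.24% of all promoters, and the D-box in 1, that of Per3 with 2 matches, beside 0.955%. The element TAGGTCA, bound by REV-ERB factors, was present in 1, that of Nfil3, beside 2.64%. Elements outside this window were not searched.

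Genes of position along the body were lower. Of 16 subcutaneous position genes 9 were lower and 0 higher, with a median of -0.56. Hoxa7 was at 18.4, 17.2, 21.8 and 19.1 CPM against 36.4, 32, 28.8, 34.6 and 37.9 CPM (log2 fold change -0.83, SE 0.10, adjusted p = 2.29e-04), and Hoxc9 at 12.4, 11.7, 11.4 and 11.6 CPM against 19.2, 17.4, 18.6, 14.8 and 19 CPM (log2 fold change -0.60, SE 0.09, adjusted p = 6.99e-04). Low-fat libraries held 35.8, 33.2 and 31.9 CPM of Hoxa7 and 20.2, 17.4 and 17.7 CPM of Hoxc9, levels of the 8-week group. Hoxc10 was at 17, 17.8, 19.2 and 20.2 CPM against 26.6, 28.5, 46.8, 22.5 and 25.1 CPM (log2 fold change -0.69, SE 0.20, adjusted p = 0.0221). It lost its call without 20-week replicate 3 (adjusted p = 0.064) or 4 (0.0618), with the length trend removed (0.0527) and with all 24 libraries in 1 fit (0.556). Tbx15 did not pass (-1.41, adjusted p = 0.189), and was at 17.5, 17.7, 134, 16.2 and 20.9 CPM at 8 weeks, with the muscle-rich replicate 3 as the high library, and without both muscle-rich libraries it was lower (-0.36, adjusted p = 0.0389). Tbx1, a gene of beige fat, was at 0.472, 0.135, 1.87 and 1.76 CPM against 7.18, 5.66, 26.4, 3.8 and 5.64 CPM (log2 fold change -3.19, SE 0.91, adjusted p = 0.0253). It was not called without 20-week replicate 3 (adjusted p = 0.0705), with no low-count filter (0.059), with all 24 libraries in 1 fit (0.0704) or with Azin2-/- libraries added (0.0677). Of 12 genes known for visceral fat 3 were tested, of which 2 were lower and 0 higher, and 9, such as Wt1 and Tcf21, were too low to test. Gata6 was at 5.34, 3.17, 6.74 and 5.38 CPM against 17.9, 16.7, 7.89, 15.2 and 13.1 CPM (log2 fold change -1.45, SE 0.27, adjusted p = 0.00258), and Lrrn4 was lower (-2.05, adjusted p = 0.00632). With all 24 libraries in 1 fit 2 of the 16 position genes were lower.

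Thermogenic genes were divided, with 5 of 16 higher and 4 lower. Ucp1, the uncoupling protein of brown fat, was low in all 9 libraries (0.502 to 0.704 against 0.0578 to 1.35 CPM) and did not pass (0.18, adjusted p = 0.841). With the Azin2-/- libraries added to the 8-week group its value was -6.83 (adjusted p = 0.116). Cidea, a droplet protein of brown and beige cells, was lower (-1.31, adjusted p = 0.0261), and Dio2, the deiodinase that activates thyroid hormone, was higher (2.0, adjusted p = 1.41e-04), but not with the Azin2-/- libraries added to the 8-week group (0.55, adjusted p = 0.516). Elovl3, an elongase of brown fat, was at 6.26, 7.66, 5.11 and 3.43 CPM against 0.142, 1.38, 0.145, 0.0563 and 0.33 CPM (log2 fold change 3.71, SE 0.79, adjusted p = 0.00659), and low-fat replicate 5 held 4.9 CPM. Progenitor genes were lower in 5 and higher in 2 of 18. Wnt2 was at 1.83, 1.68, 1.31 and 1.59 CPM against 3.67, 3.49, 4.57, 4.45 and 6.57 CPM (log2 fold change -1.50, SE 0.21, adjusted p = 4.90e-04), and Pi16, which marks stem-like fibroblasts of the interstitium, was lower (-1.17, adjusted p = 0.0235), while Pdgfra, Cd34 and Dpp4 did not pass. The number lower was 1 without 20-week replicate 4 and 2 without 20-week replicate 3 or 5, and 3 without 20-week replicate 6, 8-week replicate 1 or both muscle-rich libraries, and the number higher was 4 without 8-week replicate 4.

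Of 20 genes of the unfolded protein and integrated stress responses 8 were higher and 5 lower (3 without 20-week replicate 4 or both muscle-rich libraries, and 2 with the length trend removed). Among the higher genes were Hspa5 (0.43, adjusted p = 0.00303) and Hsp90b1 (0.30, adjusted p = 0.00441), chaperones of the endoplasmic reticulum. Among the lower ones were Asns, asparagine synthetase (-0.82, adjusted p = 9.87e-04), and Trib3, a pseudokinase (-0.55, adjusted p = 0.0188). Atf3 was at 33.2, 37.4, 38.7 and 29.2 CPM against 11.5, 14.3, 7.32, 15.2 and 8.27 CPM (log2 fold change 1.61, SE 0.22, adjusted p = 5.01e-04), and Fos at 31.8, 59.1, 33.9 and 27.7 CPM against 9.24, 10.5, 9.51, 15.4 and 10.8 CPM (log2 fold change 1.78, SE 0.24, adjusted p = 5.51e-04). Low-fat libraries held 3.67, 4.28 and 3.9 CPM of Atf3 and 3.98, 3.46 and 8.62 CPM of Fos. Of 18 immediate early genes 4 were higher and 4 lower, shares near the background. The lower ones included Jun (-0.40, adjusted p = 0.0325) and Jund (-0.30, adjusted p = 0.0112). In this list 1 or 2 were lower when any 20-week library or both muscle-rich libraries were left out, 1 without 8-week replicate 1 and 0 with the length trend removed. Hypoxia genes were higher in 4 of 18 and lower in 3, shares likewise near the background. Hif1a was higher (0.77, adjusted p = 0.00152), and the vascular growth factors Vegfa (-0.51, adjusted p = 0.0112) and Vegfb (-0.93, adjusted p = 1.39e-04) were lower.

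Endothelial genes were called in 2 of 16, Kdr higher (0.45, adjusted p = 2.82e-04) and Rgcc lower (-0.83, adjusted p = 1.90e-04), with a median near 0, and 3 were lower without 8-week replicate 2 or 3 and 2 without both muscle-rich libraries. Schwann cell and myelin genes were lower in 4 and higher in 1 of 15. Without 8-week replicate 2 or 4, 7 were lower, and without 20-week replicate 3 or 4 or 8-week replicate 1 or 5 the number was 1, and without 20-week replicate 5 or 6 or both muscle-rich libraries it was 2. Erythrocyte genes were lower in 6 of 8. Hbb-bs, a beta globin with near-identical copies, was at 244, 149, 186 and 162 CPM against 1179, 409.6, 250, 315 and 529 CPM (log2 fold change -1.53, SE 0.47, adjusted p = 0.0313): 8-week replicate 1 was the high library and 8-week replicate 3 lay next to the 20-week range. The count of the list was 0 without 20-week replicate 4, 5 or 6 or 8-week replicate 5 or with no low-count filter, and 1 without 20-week replicate 3, without both muscle-rich libraries or with the length trend removed. Hbb-bs lost its call in each of these settings except without 20-week replicate 3, with an adjusted p of 0.0508 to 0.087. Blood left in the tissue at dissection cannot be told apart from feeding time.

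The largest rises, among called protein-coding genes without overlap between the groups and with mean log2 CPM not under 1, were in genes of few counts at 8 weeks. Tmem132b, a membrane protein, was at 24.2, 33.1, 24.5 and 37.3 CPM against 0.971, 0.31, 2.66, 0.338 and 0.27 CPM (log2 fold change 5.04, SE 0.73, adjusted p = 0.00132), with at most 0.469 CPM in the low-fat libraries. Myh15, a myosin heavy chain, was at 7.18, 10.2, 6.11 and 7.05 CPM against 0.379, 0.351, 0.318, 0.0844 and 0.18 CPM (log2 fold change 4.82, SE 0.36, adjusted p = 2.89e-05), and its level did not follow the muscle transcripts, since 8-week replicate 3 held 0.318 CPM. Gsg1l, a partner of glutamate receptors (4.04, adjusted p = 2.23e-04), Cck, cholecystokinin (3.92, adjusted p = 6.75e-05), Hephl1, a copper ferroxidase (3.58, adjusted p = 2.14e-05), and Gpr50, an orphan receptor related to those of melatonin (3.35, adjusted p = 0.0297), completed the set with Elovl3 and Lrmda. Gpr50 lost its call without 20-week replicate 3, 4 or 6 or 8-week replicate 5 (adjusted p 0.0521 to 0.0781) or both muscle-rich libraries (0.0829). It was also lost with no low-count filter (0.0673) and with Azin2-/- libraries added (0.105). The low-fat libraries held 8.65, 1.33 and 4.89 CPM of Hephl1 and 0.414, 0.545 and 1.98 CPM of Gsg1l.

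The largest falls chosen the same way began with Tbx1, Cfd and Prtn3, the neutrophil protease proteinase 3, whose gene lies near that of Cfd (ENSMUSG00000057729, chromosome 10: 79874476 to 79883174). Prtn3 was at 1.05, 0.894, 0.876 and 1.2 CPM against 4.95, 4.61, 7.89, 4.02 and 15.1 CPM (log2 fold change -2.86, SE 0.42, adjusted p = 8.11e-04), and 8-week replicate 5 was the highest of the 9 libraries for both Prtn3 and Cfd. Cyp2e1, a cytochrome P450 of adipocytes and liver, was at 65.3, 60.7, 185 and 75.3 CPM against 289, 426, 794, 586 and 938 CPM (log2 fold change -2.65, SE 0.49, adjusted p = 0.00389), with 624, 848 and 678 CPM on the low-fat diet. Ripk4, a kinase of epithelial cells, was lower too (-2.57, adjusted p = 0.00611). Sctr, the secretin receptor, was at 3.35, 2.25, 2.53 and 4.01 CPM against 11, 8.55, 18, 15.6 and 33.9 CPM (log2 fold change -2.52, SE 0.42, adjusted p = 0.002). Acsm3, an acyl-CoA synthetase, was lower by about as much (-2.51, adjusted p = 0.0195). Acsm3 lost its call without 20-week replicate 3 or 6 (adjusted p 0.0564 and 0.0573) or both muscle-rich libraries (0.0621), and with no low-count filter (0.05005).

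Polyamine genes were lower in 5 and higher in 2 of 18, with a median of -0.25. Azin2, an activator of ornithine decarboxylase (ENSMUSG00000028789, chromosome 4: 128930233 to 128962442), was at 12.1, 12.4, 14.1 and 14.2 CPM at 20 weeks and at 16.1, 25, 16.9, 25.1 and 18 CPM at 8 weeks (log2 fold change -0.61, SE 0.15, adjusted p = 0.0101). The groups did not overlap, and low-fat libraries held 17.5, 20.2 and 23 CPM. Sat1, which acetylates spermidine and spermine, was higher (0.33, adjusted p = 0.0104), and its relative Sat2 lower (-0.45, adjusted p = 0.00322). Odc1, ornithine decarboxylase, was at 87.2, 97.5, 83.8 and 88.3 CPM against 80.7, 92.7, 189.6, 60.8 and 68.7 CPM and did not pass (-0.14, adjusted p = 0.747), the muscle-rich 8-week replicate 3 being its high library. The hydroxylase Dohh, which completes hypusine from spermidine, was lower (-0.45, adjusted p = 6.90e-04).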

How the data were processed

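Whole subcutaneous fat was measured by RNA-seq, from 1 μg of RNA with a TruSeq stranded Total RNA kit and paired ends, per the labels' protocols. The authors deposited raw counts per Ensembl gene (49585 identifiers in each table), made with cutadapt, STAR and HTSeq 0.6.1p1 on GRCm38 (mm10), per the submitters' processing notes. The sources used here name no annotation release, counting mode or strand setting, so antisense or overlapping genes cannot be told apart and near-identical copies (globins, Oas genes, mitochondrial genes) are uncertain. Symbols, positions and exon lengths came from GENCODE M21 on GRCm38, which held 49326 of the identifiers.

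Counts of the 9 libraries were filtered with filterByExpr (minimum count 10, minimum total 15), scaled by TMM and compared with the robust quasi-likelihood test of edgeR 4.0.16 in R 4.3.3, with Benjamini-Hochberg adjustment over all genes tested and a threshold of 0.05. The test was checked on counts simulated for this design, where 100 of 16953 genes were changed 2-fold and 100 were changed 4-fold. It called 55% and 85% of these, and 4.76% of its calls were false. The simulation held no length trend or muscle-rich library and far fewer changed genes than were called here. It therefore does not measure the share of false calls in this comparison. Each SE was derived from the test, as the absolute log2 fold change divided by the square root of the quasi-likelihood F statistic. Levels of single genes are CPM normalised by TMM over the 9 libraries and low-fat replicates 3, 5 and 6. List sums and levels across all 24 libraries are CPM of the library total. In a single library a count of 0 allows up to 3 counts, or 0.0643 to 0.09 CPM, which covers counting error alone.

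Groups were taken from the labels, and 8-week replicates were numbered 1 to 5 in accession order. The genes named are a set list, the 8 largest called changes in each direction (above) and the 2 called members of smallest p in each of 48 lists. The members and lists were chosen with earlier results of these data known. Alternatives were DESeq2 1.42.0, limma-voom (limma 3.58.1) with quality weights, DESeq2 size factors, scaling over nuclear protein-coding genes, no low-count filter, a fit of the 12 wild-type SAT libraries or of all 24, Azin2-/- libraries added to the 8-week group, each library left out, both muscle-rich libraries left out, and, chosen after seeing the data, removal of a length trend. Low-fat replicate 1 was left out of the listed single-gene levels in SAT and of their plots because of its epididymal transcripts. It stays in the plots and ranges over all 24 libraries and in the fit of all 24.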

Additional observations from a re-analysis of the deposited data

Results flagged for a closer look

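In 350 groups of values, single genes, list sums or totals in the 20-week or the 8-week libraries, 27 (7.71%) had a library far from the rest by Dixon's criterion, which chance gives in about 1 in 20 groups. Several lay in 8-week replicate 3, the library with the most skeletal muscle transcripts (a sum of 56850 CPM): Tbx15 at 134.4 CPM, Tbx1 at 26.43 CPM, Hoxc10 at 46.79 CPM, Odc1 at 189.6 CPM and Ctsd at 568.9 CPM were high there, and Sat1 at 59.86 CPM was low. Without both muscle-rich libraries Hoxc10, Tbx1, Ctsd and Sat1 were still called in their directions, Tbx15 was called lower and Odc1 was not called. The part of muscle tissue in these levels was not tested.

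In 8-week replicate 5 Cfd stood at 5225 CPM and the genes of branched-chain amino acid breakdown summed to 3856 CPM, both high for the group. In 8-week replicate 1 the low-level genes Gsg1l (1.184 CPM) and Gpr50 (5.188 CPM) were high, as was Elovl3 (1.384 CPM) in replicate 2. Replicate 4 had low Mlxipl (103.2 CPM) and Hexa (121.6 CPM).

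Among the 20-week libraries, replicate 6 was high for skeletal muscle (a sum of 6421 CPM), the fat expansion list (12850 CPM) and hypoxia genes (2968 CPM), and low for Oas3 (2.23 CPM). Replicate 5 had the largest total (40.17 megareads) and was high for Cyp2e1 (184.9 CPM), the smooth muscle actin Acta2 (220.6 CPM), matrix glycoproteins (a sum of 11570 CPM) and the nearly silent epididymis list (0.5726 CPM), and low for the estrogen receptor Esr1 (17.74 CPM). Replicate 4 was high for the chemokine Cxcl2 (1.815 CPM) and low for the eosinophil chemokine Ccl24 (3.521 CPM), and replicate 3 was high for Saa3 (16.01 CPM).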

How the results depend on the processing

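The counts of called genes (6614, of which 3315 were higher and 3299 lower) stayed within 1.5 times under each alternative run except the fit of all 24 libraries, which called 4229 (2152 higher and 2077 lower), 4059 of them among the 6614. That fit shares 1 estimate of the spread with gonadal fat and Azin2-/- libraries, a muscle-rich one among them, and with low-fat replicate 1, which holds epididymal transcripts. Higher genes made up 48.9% to 53.9% of calls over the alternatives, beside 50.1%. Leaving out 1 library gave from 2704 higher and 2355 lower (without 20-week replicate 4) to 3587 and 3368 (without 8-week replicate 2). Over 121 named genes and 19 alternatives (Tbx15 had no adjusted p by DESeq2), 2125 values kept direction and side of the threshold, 149 (in 42 genes) lost a call, 8 gained one and 16 changed sign. The sign changes were in 4 genes that were not called: Odc1 had log2 fold changes of 0.14 by limma-voom, 0.24 without both muscle-rich libraries and -0.26 to 0.24 with 1 library left out; Fn1 had 0.22 with Azin2-/- libraries added and -0.24 to 0.10 with 1 library left out; Ucp1, near 1 CPM or below, had -6.83 with Azin2-/- libraries added, -0.017 without both muscle-rich libraries and -0.10 to 0.83 with 1 left out; and Saa3 had 0.049 without both muscle-rich libraries, 0.0087 with the length trend removed and -0.516 to 0.054 with 1 left out. The cause was not tested. No paired analysis was possible because the titles of the 20-week and 8-week libraries share no replicate numbers. Depth limits genes below about 1 CPM, and muscle in 2 libraries limits genes that muscle expresses.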
